A study of Mus musculus with 24 samples.

Results

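The genes described here encode proteins of the ribbon synapse of photoreceptors. They are the calcium channel subunit genes Cacna1f, Cacna2d4 and Cacnb2, the gene of the channel regulator Cabp4, the ribbon gene Ctbp2, the scaffold genes Bsn and Pclo, the vesicle priming genes Rims2 and Unc13b, and the adhesion gene Elfn1. They were taken by gene symbol from a table of 28802 genes. All 10 symbols were present, and all 10 passed the filter of a mean of at least 0.5 cpm that left 16400 genes for testing. A cpm is a read count divided by a read total of its library and scaled up by a constant factor, the same for every library.

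RNA was sequenced from the retinas of wild-type mice at postnatal day 28. The 24 libraries came from 8 inbred strains with 3 libraries each, and these strains founded the Collaborative Cross, a set of recombinant inbred lines. The wild-derived strains were WSB/EiJ, CAST/EiJ and PWK/PhJ, and the others were C57BL/6J, A/J, NZO/HlLtJ, 129S1/Svlmj and NOD/ShiLtJ, with no treatment named in the labels. The question was how the levels of these genes differ between genetic backgrounds. From the size of a single read in cpm, the read totals behind the values were between 57,591,000 and 78,141,000 (median 68,932,500). The listed genes of a library summed to 332472 to 366570 cpm, and whether the totals hold all reads sequenced was not tested. The average depth stated by the authors differs from the middle of these totals, and the reason was not tested. A gene with 3 reads was thus at 0.0384 to 0.0521 cpm, a limit that takes in counting error alone.

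Rods and cones release glutamate continuously in darkness and reduce the release in light. Release takes place at a plate-shaped ribbon that holds vesicles next to L-type calcium channels, whose main subunit in photoreceptors is encoded by Cacna1f. Loss of Cacna1f, Cacna2d4 or Cabp4 is known to impair transmission from photoreceptors to bipolar cells. Bsn, Pclo, Ctbp2 and Cacnb2 are among the genes also used at other synapses of the retina.

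The libraries were compared first. Correlations of log2(cpm + 1) over all genes tested were at least 0.989 within strains and at most 0.986 between strains, and 0 pairs of libraries were identical. The rod markers were abundant in every library. The sum of 10 of 10 rod marker genes ran from 10400 cpm in replicate 2 of WSB/EiJ to 13871 cpm in replicate 1 of CAST/EiJ. By strain it was lowest in A/J, at 11384 cpm, and highest in C57BL/6J, at 13534 cpm. The sum of 8 of 8 cone markers, led by Opn1sw, ran from 224 cpm in CAST/EiJ to 359 cpm in PWK/PhJ. In bulk retina fewer cells of a type and less RNA per cell cannot be told apart.

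The markers of other retinal cells had lower sums than those of rods. The 8 of 8 bipolar markers, led by Trpm1, summed to between 424 cpm in CAST/EiJ and 591 cpm in WSB/EiJ, and the 8 of 8 markers of horizontal, amacrine and ganglion cells, led by Nefl, to between 230.0 cpm in CAST/EiJ and 306 cpm in C57BL/6J. The 5 of 5 Müller glia markers, led by Glul, summed to between 814 cpm in CAST/EiJ and 1085 cpm in NOD/ShiLtJ. Markers of pigment epithelium, blood and oligodendrocytes were low. By strain the 6 of 6 pigment epithelium markers, led by Ttr, summed to 9.48 to 39.3 cpm, the 5 of 5 blood markers, led by Hbb-bs, to 12.3 to 28.4 cpm, and the 4 of 4 oligodendrocyte markers, led by Mbp, to 8.49 to 25.8 cpm. The highest of these, in NOD/ShiLtJ, was raised by replicate 3, at 56.3 cpm beside 11.3 and 9.98 cpm in the other libraries of the strain, and replicate 1 of NZO/HlLtJ was at 32.2 cpm. Best1, Mog and Mag were at 0 in at least 1 library.

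Some libraries stood apart in lens and X-linked transcripts. The sum of 6 of 6 lens markers, led by Cryaa, was 1355 cpm in replicate 2 of 129S1/Svlmj, 1539 cpm in replicate 2 of NOD/ShiLtJ and 181 cpm in replicate 2 of C57BL/6J, and at most 72.1 cpm in the others. Xist was at 906 to 1081 cpm in replicate 3 of 129S1/Svlmj, C57BL/6J and CAST/EiJ and in replicate 2 of PWK/PhJ, and at most 9.71 cpm elsewhere. The labels do not give the sex of the mice. Nnt, which carries a deletion of several exons in C57BL/6J, was at 4.72 to 4.93 cpm in that strain, within the 3.21 to 7.74 cpm of the other strains, so its level over the whole gene did not serve as a check of the labels. Gene-by-strain differences that pass or fail without the libraries high in Xist or in lens genes are named beside the gene.

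Levels were also taken per length of annotated exon, with the exons of all transcripts of a gene joined. This length was 22.7 kilobases for Unc13b, 13.2 for Cacnb2 and 3.52 for Cabp4. Their longest coding transcripts have 14754, 3945 and 1433 bases, so the order of the genes depends on the length used. By joined exons Unc13b, Rims2 and Cacna2d4 had the highest levels of the 10 genes, at 21.7, 21.0 and 20.5 cpm per kilobase. Cabp4 had 17.3, Cacna1f 11.8 and Cacnb2 10.5 cpm per kilobase. The scaffold gene Bsn was lowest, at 1.29 cpm per kilobase, below Elfn1 at 4.13, Pclo at 6.80 and Ctbp2 at 8.92 cpm per kilobase. Read support followed the unscaled level, with 717 reads for Elfn1 in its lowest library and 46018 reads for Unc13b in its highest. The counting error of a typical library was 0.544% for Unc13b and 2.91% for Elfn1, and the coefficient of variation between the 3 libraries of a strain was 2.57% for Unc13b, 2.69% for Rims2, 3.91% for Cacnb2, 15.7% for Bsn and 17.1% for Elfn1. For the other 5 genes it was between 7.06% and 8.21%.

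Across strains the 10 genes did not move as a block. Cacna1f and Cabp4 were highest in CAST/EiJ and PWK/PhJ and lowest in 129S1/Svlmj. Pclo was highest in WSB/EiJ and PWK/PhJ and lowest in C57BL/6J and NZO/HlLtJ, while Unc13b was highest in C57BL/6J and NZO/HlLtJ and lowest in CAST/EiJ. Cacnb2, Rims2 and Ctbp2 differed least, with a highest strain mean at most 1.20 times the lowest. The widest ratio between the means of a highest and a lowest strain was 1.87, for Cacna1f, and the narrowest was 1.11, for Rims2.

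**Figure D1:**
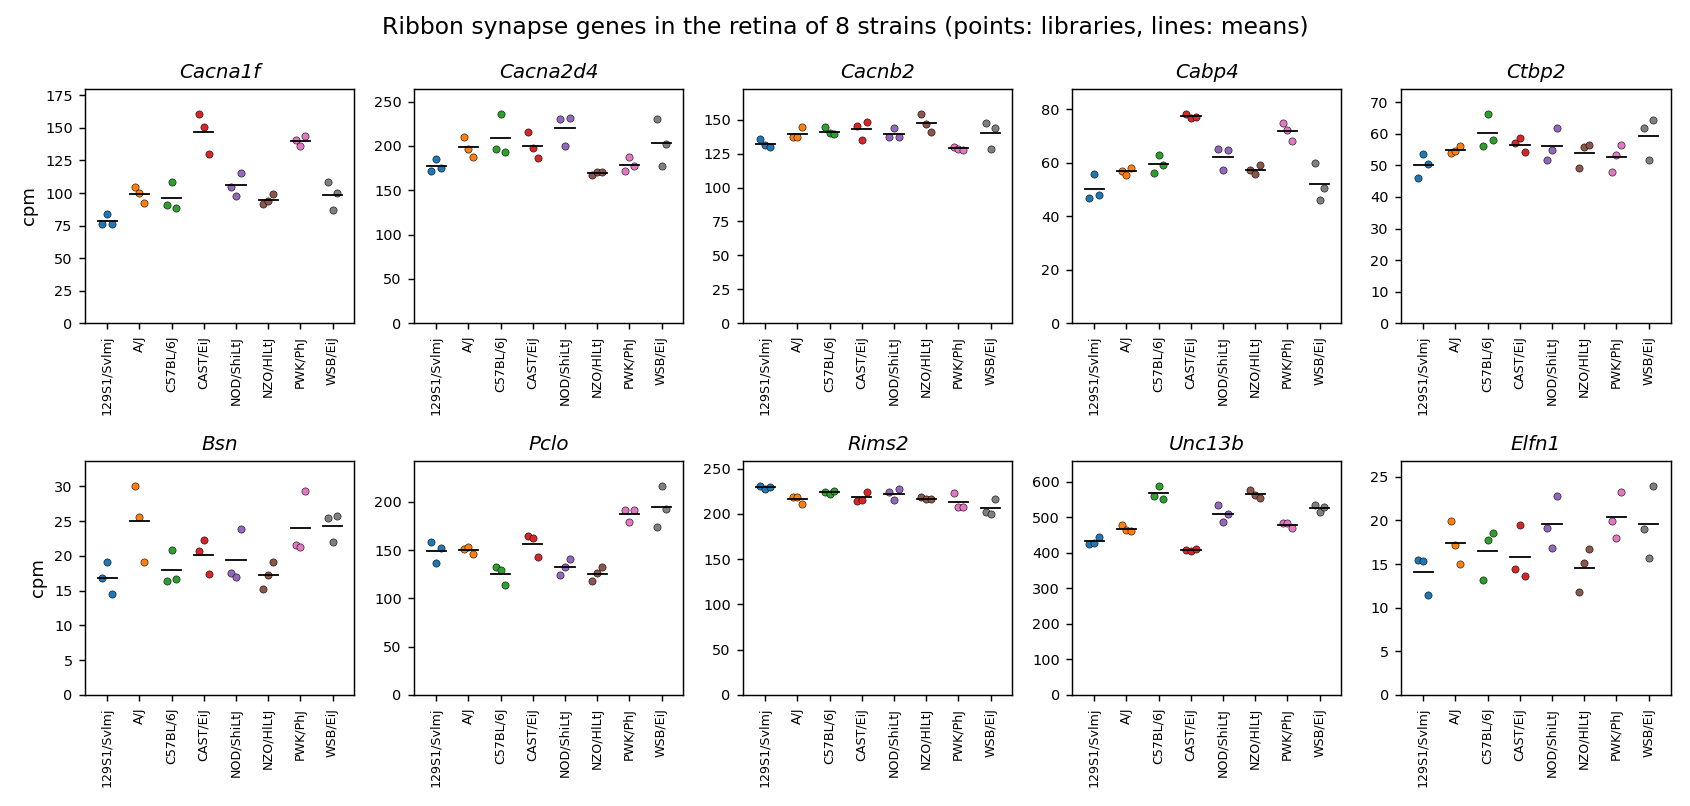
Level of each of the 10 genes, in cpm from 0, in the 3 libraries of each strain (points) with the strain mean (line). The CAST/EiJ and PWK/PhJ libraries lie above all others for Cacna1f, and the points of Rims2 lie between 200.1 and 231 cpm in all strains.

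Differences between strains were tested with limma on log2(cpm + 1), and a Storey q-value under 0.01 was the threshold. By the moderated F-test over the 8 strains all 10 genes passed, and so did 91.7% of all genes tested, so that this count says little about the 10 genes in particular. The estimated share of genes without a difference was 0.0498, and the q-values of the 10 genes were therefore below their unadjusted p. With the Benjamini-Hochberg adjustment in place of the q-value 6 of the 10 genes passed (Cacna1f, Cacna2d4, Cabp4, Bsn, Pclo and Unc13b). The unadjusted p of the other genes was 0.0191 for Cacnb2, 0.0243 for Rims2, 0.037 for Elfn1 and 0.076 for Ctbp2. Without the 3 wild-derived strains 5 of the 10 passed, and the F-test failed for Bsn (q = 0.0108), Cacnb2 (q = 0.0154), Ctbp2 (q = 0.0191), Elfn1 (q = 0.0231) and Rims2 (q = 0.0414). The share of all genes passing with that adjustment or without those strains is not given here, so these counts do not single out the 10 genes. On the log2 scale the distance between the highest and the lowest strain had a median of 0.49 over the 10 genes and 0.43 over all genes tested. It lay at the 85.5th percentile of all genes for Cacna1f, between the 56.8th and the 72.3rd percentile for Pclo, Cabp4, Bsn, Elfn1 and Unc13b, and at the 3.0th percentile for Rims2.

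Each strain was then set against the mean of the other 7. Of the 80 gene-by-strain comparisons 21 passed (26.2%), 10 of them higher and 11 lower, beside 31.8% over all genes tested. Of the 280 comparisons between pairs of strains 87 passed, beside 29.8% over all genes, and 54 of these 87 held without each library in turn, 40 of them also under every other alternative that held both strains. Without the 4 libraries high in Xist 61 pairs passed, and without the 3 highest in lens markers 89, with no share of all genes given here for these fits. A q-value that misses the threshold does not show that levels did not differ. Reads of all strains were aligned to the same reference build, GRCm38. How far sequence differences between a strain and that build changed its counts was not tested.

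The strains differed in which genes stood out. In CAST/EiJ 2 of the 10 genes were higher (18% of all genes) and 1 was lower (25.9%), and in PWK/PhJ 3 were higher (23.5%) and 1 was lower (20.5%). In WSB/EiJ 2 were higher (12.1%) and 2 lower (21%). In NZO/HlLtJ 1 was higher (13.2%) and 2 lower (13.8%), in NOD/ShiLtJ 1 was higher (15.9%) and 1 lower (9.79%), and in C57BL/6J 1 was higher (13.7%) and 1 lower (11.2%). In A/J 0 were higher (15.3%) and 0 lower (12.9%) by limma. In 129S1/Svlmj 0 were higher (14.8%) and 3 lower (13.2%).

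The mean of 129S1/Svlmj was the lowest of all 8 for 5 genes, Cacna1f, Cabp4, Ctbp2, Bsn and Elfn1, and the highest for Rims2. Its estimate was below the mean of the other strains for 9 of the 10 genes, for 8 after quantile normalization and for 7 relative to the rod markers. The median was -0.19 over the 10 genes and 0.0014 over all genes tested. In NZO/HlLtJ 8 of the 10 estimates were below (7 after quantile normalization or GC correction), with a median of -0.12, beside -0.0046 over all genes. In NOD/ShiLtJ 8 were above, but 3 or 4 under each other scaling, with a median of 0.027, beside 0.029 over all genes. Relative to the rod markers the number above rose from 4 to 10 in A/J (7 after quantile normalization) and fell from 7 to 2 in CAST/EiJ. These signs include genes that did not pass and were not tested as a group.

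**Figure D2:**
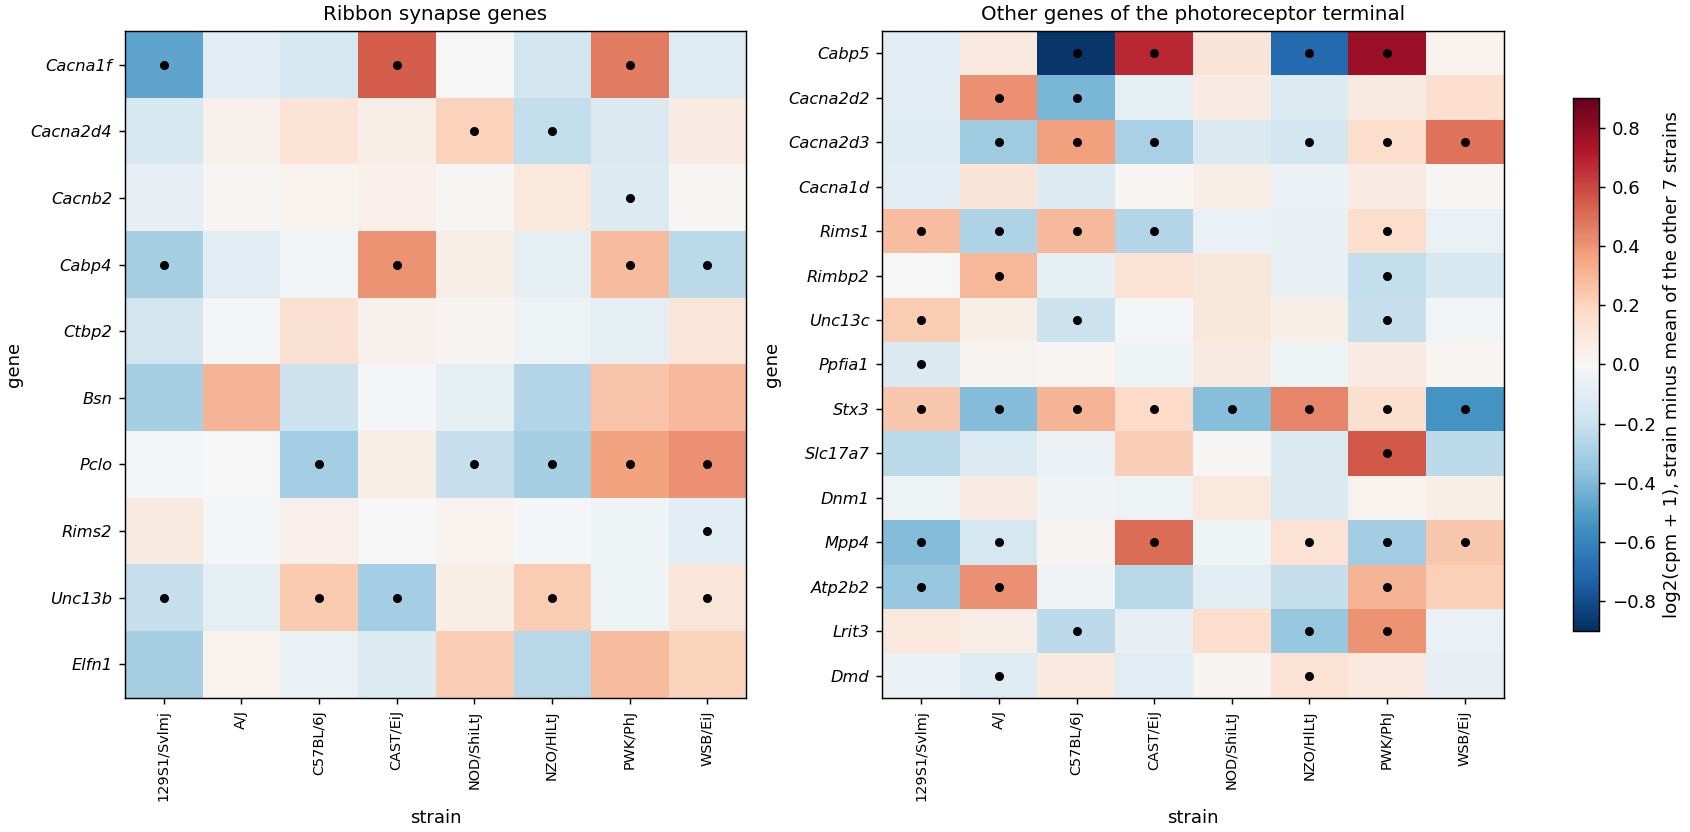
Difference of each strain from the mean of the other 7 strains in log2(cpm + 1), for the 10 genes (left) and 15 other genes of the same terminal (right), with a dot where the q-value was under 0.01. Cacna1f and Cabp4 are high in CAST/EiJ and PWK/PhJ and low in 129S1/Svlmj.

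Cacna1f encodes the pore-forming subunit of the photoreceptor channel and lies on the X chromosome (GRCm38, chrX:7607083-7635196, plus strand). It was at 161, 151 and 129.8 cpm in the CAST/EiJ libraries and at 140.4, 136 and 144 cpm in those of PWK/PhJ. All 6 of these libraries were above every other library. NOD/ShiLtJ had 104.5, 97.6 and 115 cpm, A/J 105, 100.1 and 92.1 cpm, and WSB/EiJ 108, 86.6 and 100.2 cpm. C57BL/6J had 90.8, 108 and 88.3 cpm and NZO/HlLtJ 91.7, 93.9 and 99.1 cpm. The libraries of these 5 strains overlapped. The 129S1/Svlmj libraries, at 76.5, 84.2 and 75.9 cpm, were below all others.

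The mean of Cacna1f was 147 ± 15.9 cpm (SD, n = 3) in CAST/EiJ and 78.9 ± 4.66 cpm in 129S1/Svlmj, with a moderated F of 23.8 (q = 2.08e-09). On the log2 scale CAST/EiJ was 0.54 above the mean of the other strains (SE 0.065, q = 2.23e-07) and PWK/PhJ 0.47 above it (q = 1.95e-06). The difference of 129S1/Svlmj was -0.47 (q = 1.73e-06). These 3 differences passed without each library in turn and under each other alternative that held the strain (CAST/EiJ and PWK/PhJ have no value without the wild-derived strains). In C57BL/6J the difference of -0.16 did not pass but was -0.25 without replicate 2 (q = 0.00342) and without the 3 libraries high in lens markers (q = 0.00254), of which replicate 2 is 1. It also passed with all libraries after GC correction (-0.17, q = 0.00425) and relative to the rod markers (-0.22, q = 0.00132). In NZO/HlLtJ the difference was -0.17 but passed at -0.18 without replicate 3 of CAST/EiJ (q = 0.00961) or replicate 2 of WSB/EiJ (q = 0.00873) and at -0.21 relative to the rod markers (q = 0.00148). Among the 5 strains that are not wild-derived neither strain was low, at 0.02 in C57BL/6J (q = 0.453) and 0.01 in NZO/HlLtJ (q = 0.495).

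In the order of means, CAST/EiJ, PWK/PhJ, NOD/ShiLtJ, A/J, WSB/EiJ, C57BL/6J, NZO/HlLtJ and 129S1/Svlmj, the step from PWK/PhJ to NOD/ShiLtJ passed (0.40, q = 0.000333) and did so without each library. The step from NZO/HlLtJ to 129S1/Svlmj passed too (0.26, q = 0.00873), but failed on leaving out any of 12 libraries, with q up to 0.0322. The other 5 steps between neighbours did not pass. Of the 17 pairs of strains that differed, 13 held without each library in turn, and the 4 that did not were those of 129S1/Svlmj with A/J, C57BL/6J, NZO/HlLtJ and WSB/EiJ.

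In each of the 4 strains with a library high in Xist, that library had the lowest Cacna1f level of its strain (129.8 cpm in CAST/EiJ, 136 cpm in PWK/PhJ, 88.3 cpm in C57BL/6J and 75.9 cpm in 129S1/Svlmj). None of the other genes showed this in all 4 strains. In CAST/EiJ and PWK/PhJ these libraries were also the lowest for the autosomal genes Bsn, Pclo and Elfn1. The same held in 129S1/Svlmj for Bsn and Elfn1, and in C57BL/6J for Pclo. The 3 strain differences of Cacna1f were past the threshold without those libraries and with Xist as a covariate. With the covariate the difference of NZO/HlLtJ passed as well (-0.20, q = 0.00528).

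Cabp4 encodes a calcium-binding protein that sits on the channel and shifts its opening to more negative voltages (chr19:4135423-4144033, minus strand). Its libraries were at 78.3, 76.8 and 77.2 cpm in CAST/EiJ and at 75.1, 72.2 and 68.3 cpm in PWK/PhJ. These too were the 6 highest of all libraries. The level was 65.0, 57.5 and 64.7 cpm in NOD/ShiLtJ, 56.4, 62.9 and 59.1 cpm in C57BL/6J, 57.3, 56.0 and 59.2 cpm in NZO/HlLtJ and 56.8, 55.6 and 58.2 cpm in A/J. WSB/EiJ had 60.0, 46.0 and 50.4 cpm and 129S1/Svlmj 46.8, 56.0 and 47.8 cpm. These last 2 strains overlapped with each other. Beyond that, 129S1/Svlmj overlapped with A/J alone, and WSB/EiJ with each strain but CAST/EiJ and PWK/PhJ.

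The mean of Cabp4 was 77.5 ± 0.783 cpm in CAST/EiJ and 50.2 ± 5.03 cpm in 129S1/Svlmj (ratio 1.54, F = 16.2, q = 4.79e-08). CAST/EiJ was above the other strains by 0.41 (SE 0.057, q = 1.79e-06) and PWK/PhJ by 0.28 (q = 0.000142), while 129S1/Svlmj differed by -0.30 (q = 7.32e-05). The 129S1/Svlmj difference passed under every alternative and without each library, at -0.38 to -0.18. WSB/EiJ differed by -0.24 (q = 0.000605), a result that failed without replicate 2, at -0.16 (q = 0.0168). At -0.12 each, A/J passed after GC correction (q = 0.00527) and NZO/HlLtJ relative to the rod markers (q = 0.00526). No step between neighbours in the order of means passed, although the libraries of PWK/PhJ were all above those of NOD/ShiLtJ (0.20, q = 0.0172) and all below those of CAST/EiJ (0.11, q = 0.127). That order was CAST/EiJ, PWK/PhJ, NOD/ShiLtJ, C57BL/6J, NZO/HlLtJ, A/J, WSB/EiJ and 129S1/Svlmj. Of 14 pairs that differed 11 held without each library, 10 of them also under every other alternative (129S1/Svlmj with NOD/ShiLtJ failed without the libraries high in Xist, q = 0.0134), and those that did not were 129S1/Svlmj with C57BL/6J, C57BL/6J with PWK/PhJ and NOD/ShiLtJ with WSB/EiJ. Cabp4 shares 3.72% of its exon bases with Gpr152 on the opposite strand (35.1 cpm), and the strand setting of the read counting is not given in the sources used here.

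**Figure D3:**
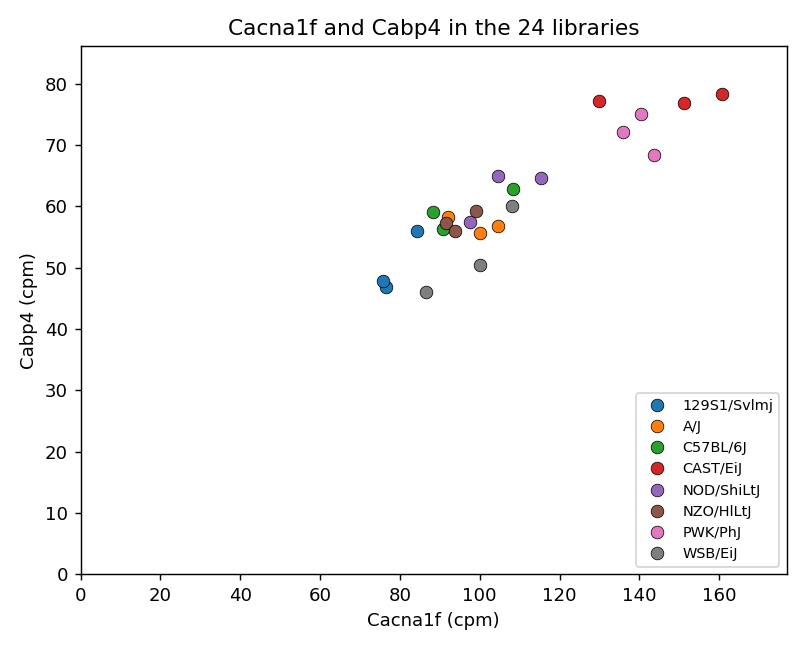
Level of Cabp4 against that of Cacna1f in the 24 libraries, both in cpm, coloured by strain. The libraries of CAST/EiJ and PWK/PhJ lie apart from the other 18 in both genes.

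Cacna1f and Cabp4 varied together more closely than any other pair of the 10 genes across strains. Over the 8 strain means their Pearson r was 0.95 and the Spearman rank correlation 0.81, and within strains, over the deviations of the 24 libraries from their strain means, r was 0.64. Each pair of values came from the same library, so the points share its depth and base composition.

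Cacna2d4 encodes the auxiliary subunit that carries the channel to the membrane (chr6:119236526-119352407, plus strand). It was at 230.0, 199.5 and 232 cpm in NOD/ShiLtJ, the strain with the highest mean, and at 167, 170.3 and 170.5 cpm in NZO/HlLtJ, the lowest. The NZO/HlLtJ libraries were below all others, by a small margin, since replicate 1 of PWK/PhJ and of 129S1/Svlmj were both at 172 cpm. The means of the other strains were 209 ± 23.6 cpm in C57BL/6J, 203 ± 26.7 in WSB/EiJ, 199.9 ± 15.2 in CAST/EiJ, 198 ± 11.2 in A/J, 179 ± 7.86 in PWK/PhJ and 178 ± 6.73 in 129S1/Svlmj. No step between neighbours in this order passed.

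Cacna2d4 thus did not share the CAST/EiJ and PWK/PhJ pattern of its pore-forming partner. NOD/ShiLtJ was above the other strains by 0.21 (SE 0.063, q = 0.00434) and NZO/HlLtJ differed by -0.22 (q = 0.00331), with an F of 4.85 (q = 0.000159). Both failed on leaving out a library of the strain. The NOD/ShiLtJ difference was 0.18 (q = 0.0308) without replicate 1 and 0.17 (q = 0.034) without replicate 3, and it failed by a small margin with the Benjamini-Hochberg adjustment (0.0106), without moderation of the spread (q = 0.0104) and without the 4 libraries high in Xist (q = 0.0111). The NZO/HlLtJ difference kept its size but missed the threshold without replicate 1 (-0.21, q = 0.0161), replicate 2 (-0.22, q = 0.0121) or replicate 3 (-0.22, q = 0.0113). PWK/PhJ, at -0.13, passed with quantile normalization (-0.19, q = 0.00387), after GC correction (-0.16, q = 0.00532) and relative to the rod markers (-0.17, q = 0.00279), where A/J (0.16, q = 0.00436) and WSB/EiJ (0.14, q = 0.00698) passed as well. Of the 5 pairs of strains that passed, that of NOD/ShiLtJ and NZO/HlLtJ (0.38, q = 0.000441) held without each library. The other pairs, 129S1/Svlmj with NOD/ShiLtJ, C57BL/6J with NZO/HlLtJ, NOD/ShiLtJ with PWK/PhJ and NZO/HlLtJ with WSB/EiJ, each failed without at least 2 of the libraries, with q up to 0.0639.

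Cacnb2 encodes the intracellular subunit of the channel (chr2:14603088-14987908, plus strand), and its level was among the most even. Strain means ran from 129 ± 1.07 cpm in PWK/PhJ, with libraries at 130.1, 128 and 128 cpm, to 147 ± 6.83 cpm in NZO/HlLtJ, with libraries at 154, 147 and 141 cpm. Between these lay 132 ± 3.01 cpm in 129S1/Svlmj, 139.5 ± 3.97 in NOD/ShiLtJ, 139.7 ± 3.99 in A/J, 140.0 ± 9.99 in WSB/EiJ, 141 ± 2.87 in C57BL/6J and 143 ± 6.99 in CAST/EiJ. The ratio of the highest to the lowest mean was 1.14, at the 7.29th percentile of all genes in log2 distance, and no step between neighbours in the order passed.

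PWK/PhJ differed from the other strains by -0.12 in Cacnb2 (SE 0.036, q = 0.00442, F = 3.13). The call failed without replicate 1 (-0.13, q = 0.0117), replicate 2 (-0.12, q = 0.0176) or replicate 3 (-0.12, q = 0.0183) of the strain, with the Benjamini-Hochberg adjustment (0.0108) and without the 4 libraries high in Xist (q = 0.028). NZO/HlLtJ did not pass at 0.10 but did at 0.13 without its replicate 3 (q = 0.00969) and at 0.12 with quantile normalization (q = 0.00259), and 129S1/Svlmj passed after GC correction (-0.10, q = 0.00844). The pairs that passed were NZO/HlLtJ with PWK/PhJ, which failed without replicate 1 of NZO/HlLtJ (0.16, q = 0.0112), and 129S1/Svlmj with NZO/HlLtJ and CAST/EiJ with PWK/PhJ, which failed without any of 4 and 18 libraries. The F-test of Cacnb2 also failed without the libraries high in Xist (q = 0.0123) and without the wild-derived strains.

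Ctbp2 gives rise to the ribbon's main building block, the protein ribeye, from a start inside the gene, and to the transcriptional corepressor CtBP2 from starts further upstream (chr7:132987563-133124354, minus strand). The values are for the whole gene, so the transcripts of both proteins cannot be told apart. The libraries were at 56.2, 66.3 and 58.2 cpm in C57BL/6J, the strain with the highest mean, and at 46.1, 53.5 and 50.4 cpm in 129S1/Svlmj, the lowest. Every other strain had libraries within this range, with means of 59.4 ± 6.69 cpm in WSB/EiJ, 56.6 ± 2.26 in CAST/EiJ, 56.3 ± 5.21 in NOD/ShiLtJ, 54.9 ± 1.18 in A/J, 53.9 ± 3.99 in NZO/HlLtJ and 52.6 ± 4.26 in PWK/PhJ. No strain passed against the others, and neither did any step between neighbours in this order.

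The largest Ctbp2 difference was -0.16 in 129S1/Svlmj (SE 0.063, q = 0.0174), which passed with the lens markers as a covariate (-0.20, q = 0.00906) and after GC correction (-0.14, q = 0.00683). C57BL/6J also passed after GC correction (0.13, q = 0.00996) and WSB/EiJ relative to the rod markers (0.18, q = 0.00969). Replicate 2 of WSB/EiJ, at 51.8 cpm, was the lowest of its strain, and without it both 129S1/Svlmj (-0.18, q = 0.00631) and WSB/EiJ (0.11 with it, 0.20 without, q = 0.00827) passed. The pair of 129S1/Svlmj and C57BL/6J was the only pair to pass (-0.26, q = 0.00709), and failed without any of 4 libraries of these strains, with q up to 0.0417. The F-test (F = 2.19) gave q = 0.0044 but failed without replicate 1 of 129S1/Svlmj (q = 0.0108), without the libraries high in Xist (q = 0.0163), without moderation of the spread (q = 0.0106), with no filter (q = 0.0224) and without the wild-derived strains. About 5.05% of the exon bases of Ctbp2 are shared with Fgfr2 on the same strand (1.52 cpm).

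The start of ribeye is where the RefSeq promoter table, on GRCm38.p6, and the transcript annotation meet. The annotated transcript Ctbp2-214, which starts at base 133015248 of chromosome 7, holds 2964 coding bases, 1687 of them in a single exon, and the shorter-protein transcript Ctbp2-201, which starts at base 133123367, holds 1335. The table had entries for 7 of the 10 genes and none for Cacna2d4, Cabp4 and Rims2. The 9 promoters, each of 300 bases from 250 before to 50 after a start, were searched on both strands for TAATCC, the letters bound by homeodomain factors of the Otx and Crx kind, and its reverse complement GGATTA. The letters stood in 1 of the 9 and in 7.06% of all 32851 promoters. The match was 121 bases before the ribeye start (chr7:133015351-133015380, minus strand), within the initial exon of another annotated Ctbp2 transcript, and is shown 5′ to 3′ with the matching letters in capitals:
Ctbp2: taaggtttcagaGGATTAataatttaggtc
The match is a description of the sequence, and binding was not measured.

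Bsn encodes bassoon, the large scaffold protein that anchors the ribbon to the membrane (chr9:108096022-108190384, minus strand). The libraries were at 30.1, 25.6 and 19.2 cpm in A/J, 25.4, 21.9 and 25.7 cpm in WSB/EiJ and 21.6, 21.2 and 29.4 cpm in PWK/PhJ, the strains with the highest means. In 129S1/Svlmj they were at 16.8, 19.0 and 14.5 cpm, and in NZO/HlLtJ at 15.2, 17.2 and 19.1 cpm. The libraries of 129S1/Svlmj and NZO/HlLtJ were all below those of A/J, PWK/PhJ and WSB/EiJ, by a small margin in A/J, whose own libraries lay further apart than the highest and the lowest strain mean. Means between were 20.1 ± 2.47 cpm in CAST/EiJ, 19.4 ± 3.82 in NOD/ShiLtJ and 17.9 ± 2.49 in C57BL/6J.

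Bsn passed the F-test (F = 4.18, q = 0.000338), though not without the wild-derived strains, but no single strain passed against the others, and no step in the order of means passed. The estimates were 0.31 in A/J (SE 0.116, q = 0.0166) and -0.30 in 129S1/Svlmj (q = 0.0182). Without replicate 3 of A/J, the lowest of that strain, the difference of A/J was 0.48 (q = 0.00197) and that of 129S1/Svlmj -0.33 (q = 0.00783). On leaving out each library in turn, the A/J difference ran from 0.17 to 0.48 and that of 129S1/Svlmj from -0.39 to -0.21. A/J also passed at 0.33 without replicate 3 of NOD/ShiLtJ (q = 0.00883) or of PWK/PhJ (q = 0.00921), relative to the rod markers (0.42, q = 0.00179), after GC correction (0.26, q = 0.00911) and without the wild-derived strains (0.45, q = 0.00707). Without the 3 libraries high in lens markers A/J (0.32, q = 0.00997) and 129S1/Svlmj (-0.39, q = 0.00926) passed. WSB/EiJ, at 0.29, passed with median-ratio scaling (0.33, q = 0.00979), relative to the rod markers (0.36, q = 0.00535) and after GC correction (0.28, q = 0.00564). The 5 pairs that passed were those of 129S1/Svlmj with A/J, PWK/PhJ and WSB/EiJ and of NZO/HlLtJ with A/J and WSB/EiJ, and 0 of them held without each library in turn, with q up to 0.0486.

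Pclo encodes piccolo, a scaffold protein related to bassoon that is present at ribbons mainly as a shorter variant (chr5:14514918-14863459, plus strand). It was at 174, 217 and 193 cpm in WSB/EiJ and at 192, 179.6 and 192 cpm in PWK/PhJ. These 6 libraries were above all others. CAST/EiJ had 165, 163 and 143 cpm, A/J 152, 153 and 146 cpm, and 129S1/Svlmj 159, 136 and 152 cpm. NOD/ShiLtJ had 125, 133 and 141 cpm, NZO/HlLtJ 118, 126 and 133 cpm, and C57BL/6J 132, 129 and 114 cpm. The 3 strains of this last group overlapped with each other and, through NOD/ShiLtJ, with 129S1/Svlmj.

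The means of Pclo ran from 125 ± 9.74 cpm in C57BL/6J to 194 ± 21.5 cpm in WSB/EiJ (ratio 1.55, F = 19.9, q = 9.26e-09). WSB/EiJ was above the other strains by 0.41 (SE 0.058, q = 1.95e-06) and PWK/PhJ by 0.36 (q = 1.11e-05). C57BL/6J differed by -0.31 (q = 8.03e-05), NZO/HlLtJ by -0.30 (q = 0.000103) and NOD/ShiLtJ by -0.21 (q = 0.00283). The NOD/ShiLtJ call failed without replicate 1 (-0.16, q = 0.0313) or replicate 2 (-0.21, q = 0.0105) of the strain. Among the 5 strains that are not wild-derived, where each strain is set against a mean that includes the other lower strains, the differences did not pass and were -0.15 in C57BL/6J (q = 0.028), -0.14 in NZO/HlLtJ (q = 0.0347) and -0.04 in NOD/ShiLtJ (q = 0.336).

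In the order WSB/EiJ, PWK/PhJ, CAST/EiJ, A/J, 129S1/Svlmj, NOD/ShiLtJ, NZO/HlLtJ and C57BL/6J, the step from PWK/PhJ to CAST/EiJ passed (0.26, q = 0.00419). It failed without replicate 3 of CAST/EiJ (q = 0.0302), replicate 1 of PWK/PhJ (q = 0.0149) or replicate 3 of PWK/PhJ (q = 0.0145). The other 6 steps did not pass. C57BL/6J and NZO/HlLtJ were also below A/J (by 0.26 each, q = 0.00416 and 0.00487) and 129S1/Svlmj (by 0.25 and 0.24, q = 0.00582 and 0.00679), and each of these 4 pairs failed without any of 3 or 4 libraries, with q up to 0.0394. Of 19 pairs that differed 12 held without each library in turn, and 6 of these also under every other alternative, the others failing relative to the rod markers, 3 of them with quantile normalization too.

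Inside Pclo lie small genes annotated on its own strand and chosen here after their values were seen, for which reads of unspliced Pclo transcripts and reads of the small genes cannot be told apart. Gm42448 was at 1.38 ± 0.130 cpm in CAST/EiJ and at 4.43 to 5.34 cpm, as strain means, elsewhere. Gm42447 was at 3.28 ± 0.237 cpm in CAST/EiJ and at 8.48 ± 1.57 cpm in WSB/EiJ. Gm43662 went the other way, with 4.12 ± 0.0913 cpm in CAST/EiJ, 3.48 in PWK/PhJ and 3.39 in WSB/EiJ against 2.01 to 2.57 cpm in the other 5 strains. The strain means of Gm42446 (11.5 to 13.3 cpm), Gm42444 (6.29 to 7.54 cpm), Gm42445 (3.88 to 4.42 cpm) and Gm43665 (1.03 to 1.86 cpm), also inside Pclo, showed no such departure in CAST/EiJ. The level of Pclo itself in CAST/EiJ, 157 ± 12.3 cpm, lay between those of PWK/PhJ and A/J in the order of means. Whether sequence differences from the reference build changed the counts of the small genes was not tested.

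Rims2 encodes a scaffold protein that ties vesicles and calcium channels together at the release site (chr15:39198261-39684372, plus strand). It had the narrowest range of the 10 genes. The libraries with the lowest mean, those of WSB/EiJ, were at 202, 200.1 and 216 cpm, and those of 129S1/Svlmj, with the highest mean, were at 231, 227 and 229 cpm. The 129S1/Svlmj libraries were above all 21 others, the closest being replicate 3 of NOD/ShiLtJ at 226.9 cpm. The other means were 224 ± 1.90 cpm in C57BL/6J, 222 ± 5.77 in NOD/ShiLtJ, 218 ± 5.71 in CAST/EiJ, 217 ± 1.27 in NZO/HlLtJ, 216 ± 4.75 in A/J and 213 ± 9.27 in PWK/PhJ. Steps between neighbours in this order did not pass, that from 129S1/Svlmj to C57BL/6J included (0.04, q = 0.229).

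WSB/EiJ differed from the other strains by -0.09 in Rims2 (SE 0.029, q = 0.00612, F = 2.96). This small difference failed without replicate 1 (-0.08, q = 0.0344) or replicate 2 (-0.07, q = 0.0404) of the strain and under several other settings. It was -0.05 with median-ratio scaling (q = 0.0972), -0.05 after correction for GC content (q = 0.0674) and -0.02 relative to the rod markers (q = 0.328), and it failed with the Benjamini-Hochberg adjustment (0.0149), with no filter (q = 0.012) and without the libraries high in Xist (q = 0.0141). The higher value of 129S1/Svlmj, 0.08 (q = 0.0119), passed without replicate 3 of CAST/EiJ, replicate 1 of PWK/PhJ or replicate 3 of WSB/EiJ, at 0.09 each, with quantile normalization (0.09, q = 0.00329), without moderation of the spread (q = 0.00478) and relative to the rod markers (0.20, q = 0.00124). PWK/PhJ, at -0.04, passed with quantile normalization (-0.11, q = 0.00105). The pair of 129S1/Svlmj and WSB/EiJ (0.15, q = 0.00138) held without each library but failed with median-ratio scaling (0.12, q = 0.0175), after GC correction (0.11, q = 0.0143) and relative to the rod markers (0.20, q = 0.0119), and that of C57BL/6J and WSB/EiJ (0.12, q = 0.00869) failed without any of 17 libraries.

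Unc13b encodes a protein of a family of vesicle priming factors (chr4:43058953-43264871, plus strand). It had the smallest spread between libraries of a strain and the largest F of the 10 genes. C57BL/6J had 561, 589 and 552 cpm, NZO/HlLtJ 576, 562 and 556 cpm, WSB/EiJ 533, 516 and 528 cpm and NOD/ShiLtJ 535, 485 and 509 cpm. PWK/PhJ had 485, 483 and 470.4 cpm, A/J 478, 464 and 463 cpm, 129S1/Svlmj 425, 429 and 443 cpm and CAST/EiJ 408, 406 and 410.4 cpm. The C57BL/6J and NZO/HlLtJ libraries were above those of the other 6 strains, and the CAST/EiJ libraries were below all others, followed without overlap by 129S1/Svlmj.

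The means of Unc13b ran from 408 ± 2.29 cpm in CAST/EiJ to 567 ± 19.1 cpm in C57BL/6J (ratio 1.39, F = 38.5, q = 3.20e-11). CAST/EiJ differed from the other strains by -0.31 (SE 0.030, q = 7.72e-09) and 129S1/Svlmj by -0.21 (q = 2.03e-06). C57BL/6J was above them by 0.24 (q = 4.01e-07), NZO/HlLtJ by 0.23 (q = 6.75e-07) and WSB/EiJ by 0.11 (q = 0.00191). The WSB/EiJ call failed without replicate 1 (0.10, q = 0.0116) or replicate 3 (0.11, q = 0.0103) of the strain. That call passed under every other alternative that held the strain, with a difference of up to 0.23. With quantile normalization the C57BL/6J difference was 0.07 (q = 0.0416). Relative to the rod markers that of 129S1/Svlmj was -0.09 (q = 0.0587). NOD/ShiLtJ, at 0.06, passed with quantile normalization (0.12, q = 0.00423). A/J, at -0.08, passed with median-ratio scaling (-0.10, q = 0.00679), without moderation (q = 0.00505) and without the wild-derived strains (-0.14, q = 0.00381).

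In the order C57BL/6J, NZO/HlLtJ, WSB/EiJ, NOD/ShiLtJ, PWK/PhJ, A/J, 129S1/Svlmj and CAST/EiJ, no step between neighbours of Unc13b passed, although pairs further apart did. The step from A/J to 129S1/Svlmj came closest (0.12, q = 0.0108). Of 20 pairs that differed, more than for any other of the 10 genes, 16 held without each library, and 10 of these also under every other alternative.

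Elfn1 encodes the adhesion protein of the rod terminal that recruits the glutamate receptor of bipolar cells across the cleft (chr5:139907943-139974722, plus strand). It had the lowest level in cpm, though not per kilobase, and the widest spread within strains. The libraries were at 19.9, 18.0 and 23.2 cpm in PWK/PhJ, the strain with the highest mean, and at 15.4, 15.3 and 11.4 cpm in 129S1/Svlmj, the lowest. These 2 strains did not overlap, and each of the others overlapped with at least 1 of them. Means were 19.6 ± 3.02 cpm in NOD/ShiLtJ, 19.6 ± 4.16 in WSB/EiJ, 17.4 ± 2.50 in A/J, 16.5 ± 2.93 in C57BL/6J, 15.9 ± 3.14 in CAST/EiJ and 14.6 ± 2.50 in NZO/HlLtJ.

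No strain passed against the others for Elfn1, with -0.30 in 129S1/Svlmj (SE 0.126, q = 0.027) and 0.28 in PWK/PhJ (q = 0.0347), and no step between neighbours passed. Without each library in turn these differences ran from -0.37 to -0.17 in 129S1/Svlmj and from 0.19 to 0.36 in PWK/PhJ. The F of 2.67 gave q = 0.00226, and q = 0.0132 with no filter. The pair of 129S1/Svlmj and PWK/PhJ passed (-0.51, q = 0.00891) but failed without any of 8 libraries, with q up to 0.0519. With an SE of 0.126 on the log2 scale, differences of the size called for Cabp4 in WSB/EiJ would not have passed for Elfn1.

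Beside Cacna1f and Cabp4, the 10 genes formed few close pairs among the 45. Over the 8 strain means r was 0.76 for Bsn and Pclo, 0.75 for Bsn and Elfn1 and 0.73 for Cacna2d4 and Ctbp2, and Rims2 ran against the scaffold genes, with r of -0.80 with Bsn and -0.69 with Pclo. Within strains, over the 24 deviations, the order was another. Cacna1f and Cacna2d4 had an r of 0.89 within strains and of 0.11 over strain means, and Bsn and Elfn1 had 0.79 and 0.75. Bsn and Rims2 had 0.08 within strains.

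Those within-strain relations ran along with the base composition of the libraries. For each library the slope of log2 deviations on GC content was taken over 16145 genes (98.4% of those tested). Over the 24 libraries, as deviations from the strain means, the correlation with this slope was 0.886 for Cacna1f, 0.836 for Ctbp2, 0.767 for Cacna2d4, 0.761 for Bsn, 0.691 for Cabp4 and 0.688 for Elfn1, and between -0.102 and 0.256 for Pclo, Cacnb2, Rims2 and Unc13b. The GC content of the longest coding transcript was 52.6% to 59.8% for the former 6 genes and 44.8% to 48.9% for the latter 4, with a median of 49.0% over the genes tested. By strain the mean slope, in log2 per 10 points of GC, was lowest in NZO/HlLtJ (-0.046) and 129S1/Svlmj (-0.044) and highest in PWK/PhJ (0.043), with an SD within strains of up to 0.084. After a correction for GC content, chosen after seeing the data, 28 gene-by-strain differences passed in place of 21, and the sole call lost was that of Rims2 in WSB/EiJ. The share of all genes passing after the correction is not given here.

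The gene most like each of the 10 was sought over all other genes tested, by r over the 24 libraries. For Cacna1f it was Rhot2, which encodes a mitochondrial transport protein, with r = 0.97 over libraries, 0.98 over strain means and 0.86 within strains. Rhot2 was lowest in 129S1/Svlmj (36.9 cpm) and highest in PWK/PhJ (74.4 cpm) and CAST/EiJ (71.3 cpm). Cabp4 was most like Hnrnpul1 (0.93), Unc13b like Rbm22 (0.92), Elfn1 like Cbx6 (0.91), Pclo like Gm49693 (0.88, with a mean of 0.617 cpm), Cacna2d4 like Dgkd (0.86), Ctbp2 like C2cd2l (0.83), Rims2 like 1110012L19Rik (0.83) and Cacnb2 like Prom1 (0.78). Within strains the likeness fell to -0.09 for Unc13b and Rbm22 and to 0.26 for Pclo and Gm49693, so that these pairs share differences between strains and not between libraries of a strain.

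Other genes of the photoreceptor terminal and relatives of the 10 genes were examined in 4 lists. Of the relatives of the channel subunits and of Cabp4, 14 of 15 tested genes passed the F-test, beside 91.7% of all genes (Cabp7 was too low to be tested), with a median log2 distance of 0.50 between the highest and the lowest strain. Their strain differences passed in 31 of 120 cases (25.8%, beside 31.8% of all genes), 16 higher and 15 lower. Cabp5, a relative of Cabp4 found in bipolar cells, varied most, from 24.5 ± 1.54 cpm in C57BL/6J and 27.3 ± 1.19 cpm in NZO/HlLtJ to 64.6 ± 4.65 cpm in CAST/EiJ and 68.2 ± 5.03 cpm in PWK/PhJ. The same wild-derived strains were thus highest for Cabp4 and Cabp5. Cacna2d2 ran from 12.0 ± 2.05 cpm in C57BL/6J to 20.3 ± 1.54 cpm in A/J and Cacna2d3 from 10.5 ± 0.595 cpm in A/J to 17.9 ± 1.25 cpm in WSB/EiJ. Cacna1d, the closest relative of Cacna1f in the list, varied least, from 29.3 ± 2.36 to 33.9 ± 1.42 cpm. The relatives summed to 229 cpm in NZO/HlLtJ and in C57BL/6J and to 293 cpm in PWK/PhJ, with Cabp5 the most abundant of the 16.

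Among 11 of 11 further genes of the release site, 9 passed the F-test, beside 91.7% of all genes. The median distance was 0.34, with 7 higher and 10 lower differences of 88 (19.3%, beside 31.8%). Rims1, a relative of Rims2, ran from 19.5 ± 2.17 cpm in A/J to 27.9 ± 2.77 cpm in C57BL/6J, the scaffold gene Rimbp2 from 7.43 ± 0.479 cpm in PWK/PhJ to 10.6 ± 0.848 cpm in A/J, and Unc13c, a relative of Unc13b, from 66.2 ± 0.519 cpm in PWK/PhJ to 86.6 ± 7.04 cpm in 129S1/Svlmj. Ppfia1 varied least, from 29.9 ± 0.296 to 34.1 ± 1.16 cpm. The summed level of the list was 315 cpm in CAST/EiJ and 349 cpm in 129S1/Svlmj, with Unc13c the most abundant gene. The order of strains thus differed between Unc13b, lowest in CAST/EiJ and 129S1/Svlmj, and Unc13c, highest in 129S1/Svlmj.

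For 13 of 13 genes of vesicle fusion and recycling, 12 passed the F-test, beside 91.7% of all genes. The median distance was 0.41, with 18 higher and 15 lower differences of 104 (31.7%, beside 31.8%). Stx3, the syntaxin of ribbon synapses, ran from 155 ± 9.41 cpm in WSB/EiJ and 169 cpm in A/J and NOD/ShiLtJ to 279.9 ± 12.3 cpm in NZO/HlLtJ, and all 8 strains passed against the mean of the others. Slc17a7, which encodes the vesicular glutamate transporter of photoreceptors, was at 326 ± 35.1 cpm in PWK/PhJ and 200.3 ± 20.8 cpm in 129S1/Svlmj. The Slc17a7 F-test failed without the wild-derived strains (q = 0.116). Dnm1 did not pass (47.9 to 54.9 cpm, q = 0.0439), although it did relative to the rod markers (q = 0.00534). The summed level of the list, with Syt1 the most abundant gene, was 1741 cpm in WSB/EiJ and 2056 cpm in PWK/PhJ.

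All 10 of 10 genes of adhesion, anchoring and calcium extrusion at the terminal passed the F-test, beside 91.7% of all genes, with a median distance of 0.50. Of their 80 strain differences 30 passed (37.5%, beside 31.8%), 16 higher and 14 lower. In 129S1/Svlmj 6 of the 10 were lower (Dag1, Egflam, Dlg4, Mpp4, Atp2b2 and Lrit1), beside 13.2% of all genes, and 0 higher, beside 14.8%. The median of the list in that strain was -0.18, and scaling relative to the rod markers raised the median of all genes there by 0.12. In PWK/PhJ 5 were higher, beside 23.5% of all genes, and 2 lower, beside 20.5%. Mpp4, a scaffold gene of the rod terminal, was at 243 ± 6.72 cpm in CAST/EiJ and 141 ± 1.45 cpm in 129S1/Svlmj, with the calcium pump gene Atp2b2 at 49.7 ± 3.76 cpm in A/J and 31.0 ± 2.23 cpm in 129S1/Svlmj, and the adhesion gene Lrit3 at 13.7 ± 0.981 cpm in PWK/PhJ and 8.35 ± 0.242 cpm in NZO/HlLtJ. Dmd varied least, from 352 ± 10.2 to 409 ± 11.6 cpm, and was the most abundant gene of the list, which summed to 1062 cpm in 129S1/Svlmj and 1219 cpm in CAST/EiJ. 129S1/Svlmj and CAST/EiJ were thus the extremes of Mpp4, as they were of Cacna1f and Cabp4. In PWK/PhJ, however, Mpp4 was below the mean of the other strains, whereas Cacna1f and Cabp4 were above it.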

How the data were processed

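Retinal RNA libraries were made by the authors from total RNA with a stranded kit after ribosomal RNA depletion. The authors trimmed the reads, used STAR for alignment (build GRCm38, or mm10) and counted per gene in Partek Flow by expectation-maximization (versions and strand setting not given in the sources used here). The deposited values are cpm, each count divided by the library's total reads with 0.0001 added. The paper names a RefSeq annotation, while the table's columns are of the Ensembl type, and the positions of all 10 members matched GENCODE. Only 87.7% to 89.9% of low values were whole reads (within 0.05 of a read), so no count test was run.

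Values were taken as log2(cpm + 1), which understates changes of low genes. Genes averaging 0.5 cpm or more were fitted with limma 3.58.1 (R 4.3.3; lmFit, eBayes with trend). The moderated F-test over strains, contrasts of each strain with the mean of the other 7 and the 28 pairs were two-sided, with Storey q-values (lambda 0.5) over all genes and contrasts and a threshold of 0.01. The contrasts share libraries. Each library is described as a biological replicate, and the labels carry library codes but no replicate numbers, so replicates were numbered in the order of the samples. The fit was tested on simulated data. Scripts used Python 3.11.15, numpy 2.4.6, pandas 2.3.3 and matplotlib 3.10.9. Promoter sequences came from RefSeq (GRCm38.p6). Phenotypes measured in other mice of these strains were not used here.

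The members and lists were chosen with earlier results of these data known. Named, apart from a few genes not reported here, were all members, the 3 most and the 1 least variable gene of each partner list, the gene most like each member, the most abundant marker of each cell type list, and Xist and Nnt. Alternatives were another pseudocount (0.1), no filter, a filter at a mean of 5 cpm, median-ratio, quantile and rod-relative scaling, no moderation, Benjamini-Hochberg adjustment, a q limit of 0.05, Xist as a covariate, no wild-derived strains and leaving out each library. A lens covariate, leaving out 3 libraries high in lens markers or 4 high in Xist, and the GC correction were chosen after seeing the data.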

Additional observations from a re-analysis of the deposited data

How the results depend on the processing

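Of the 21 gene-by-strain differences that passed, 13 did so under every alternative that held the strain (4 under all 15, and 9 of wild-derived strains under 14), 14 without each of the 24 libraries in turn and 10 under both, and 0 changed sign where they passed. Of the 59 that did not pass, 24 did under some alternative and 8 on leaving out a library. Genes passing the F-test numbered 10, with 6 under the Benjamini-Hochberg adjustment, 5 without the 3 wild-derived strains (fewer samples), 8 with no filter, 8 without the 4 libraries high in Xist, 9 without moderation and 9 to 10 without each library. The gene-by-strain count of 21 was 39 at a q limit of 0.05, 9 of 50 without the wild-derived strains, 18 under Benjamini-Hochberg, 25 with quantile normalization, 28 after GC correction (chosen after seeing the data) and 19 to 23 without each library. The pair count of 87 was 19 of 100 without the wild-derived strains, 61 without the libraries high in Xist, 68 with no filter, 68 under Benjamini-Hochberg, 107 after GC correction, 128 at a q limit of 0.05 and 70 to 97 without each library. Of 49 partner genes 45 passed, with 30 without the wild-derived strains, 36 under Benjamini-Hochberg, 39 with no filter, 42 without moderation or without the libraries high in Xist, 49 relative to the rod markers or at a q limit of 0.05 and 43 to 48 without each library. All 21 calls stood without the 3 libraries high in lens markers (24 passed), chosen after seeing the data, and 18 without the 4 libraries high in Xist, also chosen after seeing the data. Relative to the rod markers 29 passed, 16 higher and 13 lower, and the median of all genes moved by 0.12 in 129S1/Svlmj, 0.12 in A/J and -0.12 in CAST/EiJ. Shares of all genes are given for the main settings alone, so a count that moved under an alternative may or may not be particular to the 10 genes. Why the counts moved was not tested.

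No paired analysis was possible because the labels give no replicate numbers that link libraries of different strains. The paper describes the pooling of libraries for sequencing in randomized complete blocks, and the labels do not name the blocks. With 3 libraries a strain, the SE of a strain difference was 0.029 for Rims2 and 0.126 for Elfn1, and differences of 0.3 in Bsn and Elfn1 did not pass. Left-out fits leave 2 libraries in a strain and pool the spread over strains. Gene-level values do not separate transcript forms, and bulk retina does not separate rods, cones and other neurons that share these genes.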
